A study of Homo sapiens with 6 samples.

Results

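MIX23, written with its earlier symbol CCDC58 in the deposited table, and 7 genes of protein import into the mitochondrial intermembrane space (CHCHD4, GFER, TIMM8A, TIMM8B, TIMM9, TIMM10 and TIMM13) were followed in A375 cells cultured with leflunomide. The 8 genes were chosen by symbol, with earlier results of this same contrast in view and MIX23 selected on its increase, and they make up 8 of the 25438 rows that carry a gene symbol. All 8 symbols were found, each on 1 row. A375 is an established human melanoma cell line, and leflunomide is a drug whose active metabolite inhibits dihydroorotate dehydrogenase, a mitochondrial enzyme of pyrimidine synthesis. Per the labels, 100000 cells per flask, in DMEM with 10% FBS, were grown for 3 days with leflunomide at 25 µM or with DMSO, the solvent, and total RNA was hybridised to Illumina bead arrays, 3 per treatment. Nothing in the labels ties the 3 arrays per treatment to separate flasks, so every error given here is the spread between arrays and may be technical.

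Most small proteins of the intermembrane space carry pairs of cysteines and are caught there by the disulfide relay. CHCHD4 (MIA40) is the receptor that oxidises incoming proteins, and GFER (augmenter of liver regeneration) is the sulfhydryl oxidase that recharges it. TIMM9 with TIMM10, and TIMM8A or TIMM8B with TIMM13, are relay substrates that assemble into chaperones, which escort hydrophobic proteins from the outer-membrane pore across the aqueous gap to the inner membrane. MIX23 is named after a yeast protein of the intermembrane space that supports import and is induced when import is impaired.

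The MIX23 gene lies at chr3:122359591-122383231 on the reverse strand of GRCh38.p14, in RefSeq's table. Its start site is 951 bases from that of FAM162A, which lies at chr3:122384182-122412334 and runs the other way. FAM162A encodes a mitochondrial protein known as a hypoxia-induced gene. The 250 bases before each start site, from RefSeq, are shown because these head-to-head genes were both measured. Both gave higher values with leflunomide after quantile normalization. The FAM162A difference was smaller with another scaling, given below. In the MIX23 line, at chr3:122383232-122383481 on the reverse strand, capitals mark CCAAT boxes read on the opposite strand. In the FAM162A line, at chr3:122383932-122384181 on the forward strand, capitals mark a GC box read on the opposite strand.
MIX23: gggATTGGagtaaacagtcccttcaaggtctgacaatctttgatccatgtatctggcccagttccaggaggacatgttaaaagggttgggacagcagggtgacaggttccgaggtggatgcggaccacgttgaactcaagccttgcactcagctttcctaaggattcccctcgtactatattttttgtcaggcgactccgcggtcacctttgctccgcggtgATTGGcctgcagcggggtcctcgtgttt
FAM162A: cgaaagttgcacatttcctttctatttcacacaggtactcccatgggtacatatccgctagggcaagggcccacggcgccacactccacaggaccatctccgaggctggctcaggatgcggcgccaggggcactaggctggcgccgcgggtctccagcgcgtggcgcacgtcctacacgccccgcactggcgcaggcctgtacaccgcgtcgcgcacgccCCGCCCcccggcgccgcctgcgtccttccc

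Both strands of the window from 250 bases before to 50 after the start were searched for 5 motifs, namely CCAAT, the GC box GGGCGG, the ETS core CCGGAAG, the NRF1 centre CGCATGCG and the YY1 core ATGGCGGC. RefSeq's table held a promoter for 7 of the 8 members and 35116 promoters in all. TIMM8B had no entry there and was not searched. MIX23 was the member with CCAAT matches, at -247, -28 and 3 relative to the start, and CCAAT occurred in 34.6% of all promoters. It also held the YY1 core at 8, which GFER held at 27 and 3% of promoters held. NRF1 centres lay in CHCHD4 at -151 and in TIMM9 at -129, against 2.02% of promoters. ETS cores lay in TIMM10 at -55 and -13 and in TIMM13 at -10, against 10.3%. The GC box, found in 45% of promoters, occurred in GFER, TIMM8A, TIMM9, TIMM10, TIMM13 and FAM162A. No match overlapped a match to another of these motifs, and a match describes letters only.

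Leflunomide replicate 3 was unlike the rest. Its mean signal was 129, against 262 to 371 on the others. It correlated with them at 0.886 to 0.898, against 0.988 to 0.997 among the other 5 arrays. Of 8412 named rows above background on those 5 arrays, restricted after the data were seen to rows whose detection p-value ranks 1 signal against the negative controls, 1245 (14.8%) were not above background on it. The members are therefore given with all 6 arrays and with 5 arrays, without that library, and so is any other import gene named with a value that turned sign or moved by over 1.5 times. Of the 12 melanocyte lineage markers, SOX10, PMEL, S100A1, MIA, CSPG4 and PRAME were detected, while MLANA, TYR, DCT, TYRP1 and S100B were not well above background on any array and MITF was above it on 1. In bulk RNA such as this, fewer cells of a type and less RNA per cell cannot be told apart.

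MIX23 had the largest log2 increase of the 12345 genes tested, which is how it was chosen. Its bead signals were 299, 338 and 226 on DMSO replicates 1 to 3 and 655, 911 and 268 on leflunomide replicates 1 to 3. Before normalization the dim leflunomide replicate 3 lay within the DMSO range, while the other leflunomide arrays were well above it. After background correction and quantile normalization the log2 values were 7.83, 7.72 and 7.36 with DMSO and 9.56, 9.50 and 9.47 with leflunomide. The groups did not overlap, with means of 7.64 ± 0.25 (SD, n = 3) and 9.51 ± 0.05 (SD, n = 3). The normalized log2 difference was 1.88 with an SE of 0.15, or 3.67-fold, and 1.90 with an SE of 0.13 on 5 arrays. Scaling each array to its median instead of quantile normalization moved the median of all genes to -0.55, and MIX23 to 1.12, which is 1.67 above that median. RefSeq lists 5 MIX23 pseudogenes, on chromosomes 3, 10, 11 and 18. It also lists 5 for CHCHD4, 3 for TIMM9, 2 for TIMM8B and 1 for TIMM8A. Whether the probe of any of these genes reads a pseudogene was not tested.

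**Figure D1:**
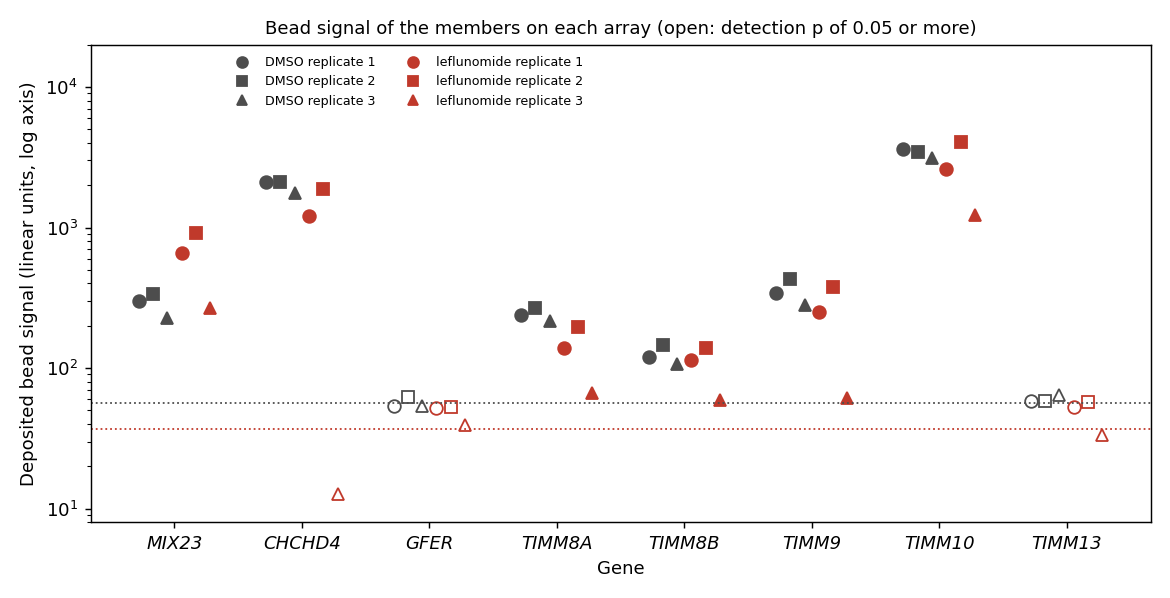
Bead signal (log10 axis, not normalized) of the 8 members on each array, with a point for each DMSO array in grey and each leflunomide array in red, open where the detection p-value was 0.05 or more. Dotted lines mark the negative control means of DMSO replicate 1 (grey, 56.4) and leflunomide replicate 3 (red, 36.8); the CHCHD4 point of leflunomide replicate 3, at 12.7, lies below both.

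CHCHD4, the relay's receptor, was bright on 5 arrays and at background on the other one. Its signals were 2097, 2113 and 1767 with DMSO and 1204, 1883 and 12.7 with leflunomide. On leflunomide replicate 3 its detection p-value was 0.995, and it lay 3.71 SD below the mean of the negative controls, which was 36.8. The normalized log2 difference was -2.23 with an SE of 1.69 on all 6 arrays and -0.14 with an SE of 0.11 without that array. The groups overlapped either way, so the larger value rested on 1 library. GFER, the oxidase, was not well above background on any array. Its signals ran from 51.6 to 62.1 on the 5 brighter arrays and were 39.3 on leflunomide replicate 3, with detection p-values of 0.203 to 0.931.

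TIMM9 and TIMM10, partners in the carrier chaperone, overlapped between the groups. TIMM10 signals were 3605, 3417 and 3107 with DMSO and 2597, 4082 and 1229 with leflunomide, and its normalized log2 values were 11.59, 11.30 and 11.46 against 11.57, 11.68 and 11.61. The log2 difference was 0.17 with an SE of 0.12, and 0.18 with an SE of 0.11 on 5 arrays. TIMM9 signals were 342, 433 and 280 with DMSO and 250, 379 and 61.2 with leflunomide. Its normalized log2 values were 8.04, 8.12 and 7.73 against 8.01, 8.16 and 6.57, so that leflunomide replicate 3 alone lay outside the range of the others. The TIMM9 difference was -0.38 with an SE of 0.43 on all arrays and 0.12 with an SE of 0.13 without that one, a change of sign.

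The paralogs TIMM8A and TIMM8B had differences of opposite sign on the normalized scale. TIMM8A, the protein lost in deafness-dystonia syndrome, gave signals of 239, 265 and 216 with DMSO and 140, 195 and 66.5 with leflunomide. Its normalized log2 values were 7.47, 7.31 and 7.28 against 6.89, 7.02 and 6.82. The groups did not overlap, and the difference was -0.44 with an SE of 0.11, or 1.36-fold lower, and -0.40 with an SE of 0.11 on 5 arrays. TIMM8B gave signals of 120, 147 and 107 with DMSO and 113, 139 and 59.1 with leflunomide. Its normalized log2 values were 6.16, 6.25 and 5.88 against 6.43, 6.38 and 6.45, again with no overlap, a difference of 0.32 with an SE of 0.13 on 6 arrays and of 0.32 with an SE of 0.12 on 5. Under median scaling TIMM8B turned to -0.30 and TIMM10 to -0.48, which are 0.25 and 0.07 above the shifted median of all genes. TIMM13, the partner of TIMM8A, was not well above background on any array, with signals of 53.3 to 63.8 on the 5 brighter arrays and 33.3 on leflunomide replicate 3, and detection p-values of 0.125 to 0.747.

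**Figure D2:**
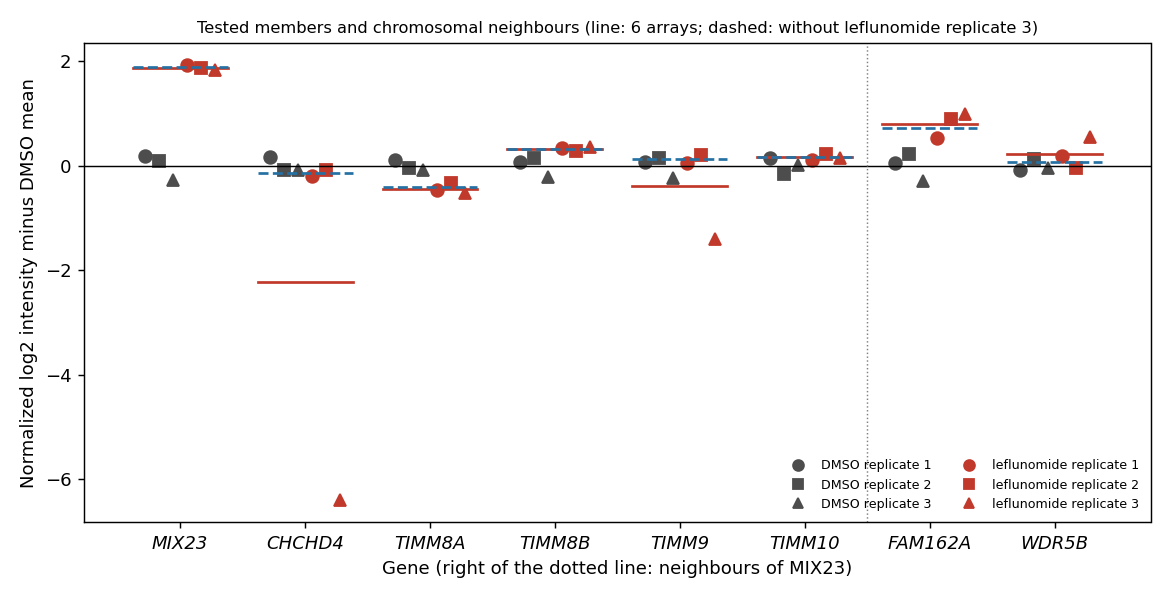
Normalized log2 intensity minus the DMSO mean, with a point for each array, for the 6 members tested and, right of the dotted line, the MIX23 neighbours FAM162A and WDR5B; red lines give the leflunomide minus DMSO difference on 6 arrays and dashed blue lines that on 5 arrays without leflunomide replicate 3. MIX23 stands at 1.88 and 1.90, while CHCHD4 goes from -2.23 to -0.14 when that array is left out.

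Of the 8 members, 6 were tested and 2 (GFER and TIMM13) failed the filter on detection. With limma on 6 arrays and an adjusted p threshold of 0.05 over all genes, 1 of the 6 was called higher and 0 lower. Among all 12345 genes the shares called were 0.194% higher and 0.794% lower. On 5 arrays, 1 member was called higher and 1, TIMM8A, lower, beside 9.22% of 12166 genes called higher and 9.98% lower; TIMM8A was not called with median scaling on those arrays. Groups did not overlap for 3 members, MIX23 and TIMM8B higher and TIMM8A lower, while over all genes 14.5% did not overlap with leflunomide higher and 15.3% with leflunomide lower. Since the members were picked with this contrast known, these counts are a description. The median log2 difference of the 6 members was -0.11 on 6 arrays and 0.15 on 5 arrays, beside -0.0026 and 0.0054 for all genes.

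The balance of calls on 5 arrays depended on the scaling. Quantile normalization gave 1122 genes higher and 1214 lower. Median scaling on the same 5 arrays, chosen after seeing the data, gave 42 higher and 787 lower around a median of -0.19.

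Ratios of background-subtracted signals within an array do not depend on the scaling between arrays. The log2 ratio of MIX23 to TIMM10 was -3.87, -3.59 and -4.19 with DMSO and -2.09, -2.24 and -2.37 with leflunomide, a shift of 1.65. Relative to TIMM8B it was 1.92, 1.67 and 1.78 against 3.40, 3.42 and 3.38, a shift of 1.61. Only the shift of each ratio can be read, since probes differ in brightness. For both small chaperone genes the 3 leflunomide arrays lay together above the 3 DMSO arrays, leflunomide replicate 3 included. The shift was 2.51 relative to TIMM8A and 2.45 relative to TIMM9, the latter 1.88 without leflunomide replicate 3. Since MIX23 was picked for its increase on these same arrays, a rise of each ratio was fixed by that choice, and the shifts are a description. Relative to its neighbour FAM162A the ratio was 0.55, 0.22 and 0.43 with DMSO and 1.85, 1.41 and 1.33 with leflunomide, a shift of 1.13.

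**Figure D3:**
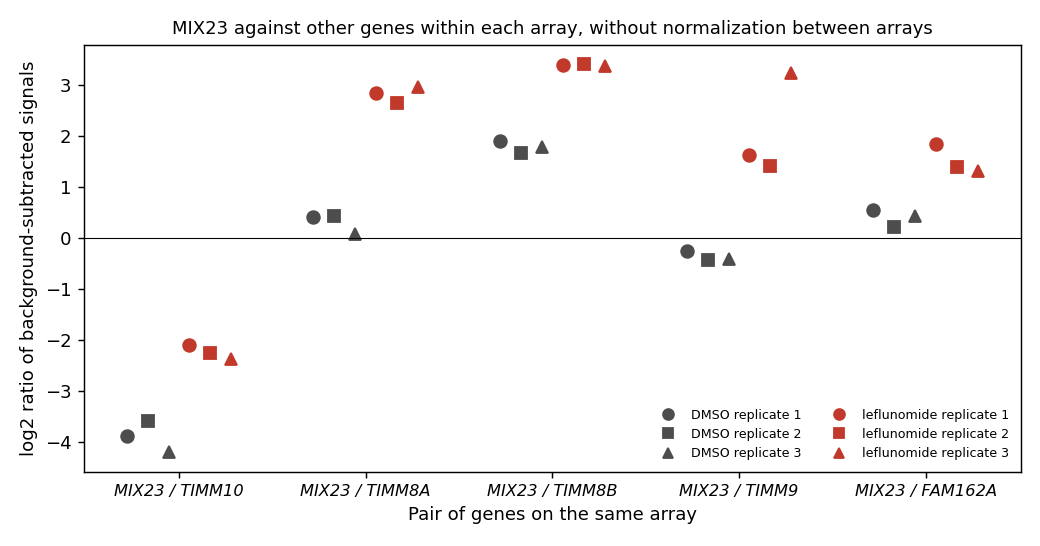
Log2 ratio of the background-subtracted MIX23 signal to that of TIMM8A, TIMM8B, TIMM9, TIMM10 and FAM162A on the same array, with a point for each array by treatment. In each of the 5 ratios the 3 leflunomide arrays lie above the 3 DMSO arrays, by a mean of 1.13 (FAM162A) to 2.51 (TIMM8A).

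The genes beside MIX23 were compared next. FAM162A, head to head with MIX23 and written C3orf28 in the table, gave signals of 222, 298 and 182 with DMSO and 223, 380 and 129 with leflunomide. Its normalized log2 values were 7.34, 7.50 and 6.99 against 7.81, 8.16 and 8.26, with no overlap between the groups. The difference of 0.80 with an SE of 0.19 missed the threshold on 6 arrays (limma adjusted p = 0.12). On 5 arrays FAM162A rose by 0.72 with an SE of 0.15, or 1.64-fold (limma adjusted p = 0.0057). With median scaling on those 5 arrays the difference was 0.45, which is 0.64 above the median of all genes, and it was not called (limma adjusted p = 0.26). Median scaling on all 6 arrays gave FAM162A a difference of 0.05, which is 0.60 above the median of all genes there, -0.55. WDR5B, the next gene on that side, which encodes a WD-repeat protein and overlaps the end of FAM162A, had a difference of 0.23 with an SE of 0.18 (limma adjusted p = 0.54), and of 0.07 with an SE of 0.12 on 5 arrays. On the other side CSTA, the protease inhibitor cystatin A, was not well above background on any array, and the pseudogene HNRNPA1P23 was not analysed here.

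The genes whose normalized values followed those of MIX23 most closely were taken from tested genes with an absolute log2 difference of at least 0.5. On 6 arrays these were LMNB1, SKA2, LOC643007, HMGB1 and TPX2, of 2002 eligible genes, with Pearson r from 0.991 to 0.996. LMNB1 encodes lamin B1 of the nuclear envelope, SKA2 a kinetochore protein, HMGB1 a chromatin protein and TPX2 a spindle assembly factor. Their log2 differences were 0.73 (LMNB1), 0.77 (SKA2), 1.03 (LOC643007), 0.88 (HMGB1) and 0.55 (TPX2). On 5 arrays the closest were FLJ11795, SCMH1, FAM72A, LOC653752 and KIF20A, of 1069 eligible genes, with r from 0.997 to 0.999. KIF20A encodes a kinesin of cell division and SCMH1 a Polycomb protein. No gene was in both sets of 5, all points of a set share the same arrays, and with so few arrays such correlations mostly restate the difference between the treatments.

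The other genes of mitochondrial import were described from 10 lists set out by function, which held 112 genes, 98 of them with a row and 94 tested. On 6 arrays limma called 0 of the 94, beside 0.194% of all genes called higher and 0.794% lower. Of the 94, 6 had an unadjusted p under 0.05, beside 2075 of all 12345 genes. The median log2 difference was 0.01, beside -0.0026 for all genes. On 5 arrays 1 of the 94 was called higher, beside 9.22% of all genes, and 8 of the 94 lower, beside 9.98%. The 8 include SLC25A25, which passed the detection filter on those arrays through DMSO alone. Of those 9, 6 were also called with median scaling on the 5 arrays, all of them lower, while SLC25A22, TOMM40L and HSPE1 were not. That scaling called 787 of all 12166 genes lower and 42 higher around a median of -0.19, so it favoured lower calls.

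Among partners of the relay, AIFM1, which brings CHCHD4 into the intermembrane space, had a log2 difference of -0.21 with an SE of 0.10 (limma adjusted p = 0.37), and CYCS, cytochrome c, which takes electrons from GFER, had 0.12 with an SE of 0.23, which turned to -0.12 with an SE of 0.13 on 5 arrays. The twin CX9C proteins are the relay's other main substrates. Of 22 listed, 18 were tested, and on 5 arrays 0 were called higher and 2 lower, beside 9.22% and 9.98% of all genes. CHCHD7 fell by 0.48 on the log2 scale (limma adjusted p = 0.0069), from signals of 280, 330 and 253 with DMSO to 163 and 209 with leflunomide replicates 1 and 2. TRIAP1, a lipid transfer subunit named for its induction by p53, fell by 0.44 (limma adjusted p = 0.0087). CHCHD6, a subunit of the MICOS complex that shapes the cristae, had a difference of 0.57 on 6 arrays and 0.33 on 5 (limma adjusted p = 0.32 and 0.11). Of the 7 other substrates of the relay, all tested, 0 were called on either set of arrays, beside the same shares of all genes on 5 arrays. SOD1, the superoxide dismutase partly kept in this space, had 0.15 on 6 arrays and 0.11 on 5. MICU2, a gatekeeper of the calcium uniporter, turned from -0.17 on 6 arrays to 0.07 on 5, and TIMM17A, a channel subunit of the TIM23 translocase, from -0.10 to 0.30.

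The carriers of the SLC25 family are the cargo that the small TIM chaperones escort. Of 28 listed, 20 were tested, and on 5 arrays 0 were called higher and 4 lower, beside 9.22% and 9.98% of all genes. SLC25A4, an ADP/ATP exchanger, gave signals of 3378, 4261 and 3149 with DMSO and 1715, 2583 and 750 with leflunomide, and fell by 0.55 on 5 arrays (limma adjusted p = 0.0031). SLC25A20, the carnitine and acylcarnitine carrier, fell by 0.64 (limma adjusted p = 0.0011). SLC25A22, a glutamate carrier, fell by 0.34 (limma adjusted p = 0.042), against -0.14 on 6 arrays. SLC25A25, an ATP-Mg and phosphate carrier, had -0.46 on 5 arrays and -0.30 on 6. Of those 5 arrays, SLC25A25 was above background on the DMSO arrays alone. It passed the detection filter through DMSO, so no test of it is given, though it counts among the 4. SLC25A13, the aspartate and glutamate carrier citrin, had a difference of 0.43 (limma adjusted p = 0.088). The median over the 20 carriers was -0.03 on 5 arrays. The TIM22 translocase inserts these carriers. Of its 4 listed genes 3 were tested and 0 called on either set, beside the same shares of all genes on 5 arrays. TIMM22, the channel, had -0.06 on 6 arrays and -0.32 on 5. AGK, a lipid kinase in the complex, had -0.09 and -0.04, and TIMM10B, a small TIM at its surface, 0.09 and -0.03.

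The list for the TOM complex, the common entry gate in the outer membrane, also holds associated genes. Of its 9 genes 7 were tested, and 2 were called lower on 5 arrays, beside 9.98% of all genes. TOMM34, a cytosolic co-chaperone of import, fell by 0.52 (limma adjusted p = 0.0077), and TOMM40L, a paralog of the channel, by 0.37 (limma adjusted p = 0.024), against -0.17 on 6 arrays. TOMM40, the channel itself, had a difference of 0.18 on 5 arrays, as did the receptor TOMM22, and both had 0.23 on 6 arrays. In the TIM23 translocase and its motor, 11 genes were tested and 0 called on either set. Beside this list and the next ones with 0 called, 9.22% of all genes were called higher and 9.98% lower on 5 arrays. TIMM17B had 0.23 on 6 arrays and 0.04 on 5. Of 10 genes of the SAM and MICOS complexes 0 were called, with 0.43 on 6 arrays and 0.27 on 5 for APOOL and 0.22 and 0.11 for IMMT, which are MICOS subunits. Of 15 processing peptidases and proteases 0 were called, with 0.31 on 6 arrays and 0.10 on 5 for MIPEP, an intermediate peptidase. YME1L1, a protease of the inner membrane, went from -1.47 with an SE of 1.31 on 6 arrays to 0.14 on 5, with signals of 556 to 901 on those 5 and 40.6 on leflunomide replicate 3. Of 6 genes listed as mitochondrial chaperones and their regulator ATF5, 1 was called higher on 5 arrays, beside 9.22% of all genes. It was HSPE1, the co-chaperonin of HSP60, at 0.49 (limma adjusted p = 0.012). TRAP1, the mitochondrial HSP90, had 0.43 on 6 arrays and 0.23 on 5, and ATF5 had 0.43 and 0.03.

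**Figure D4:**
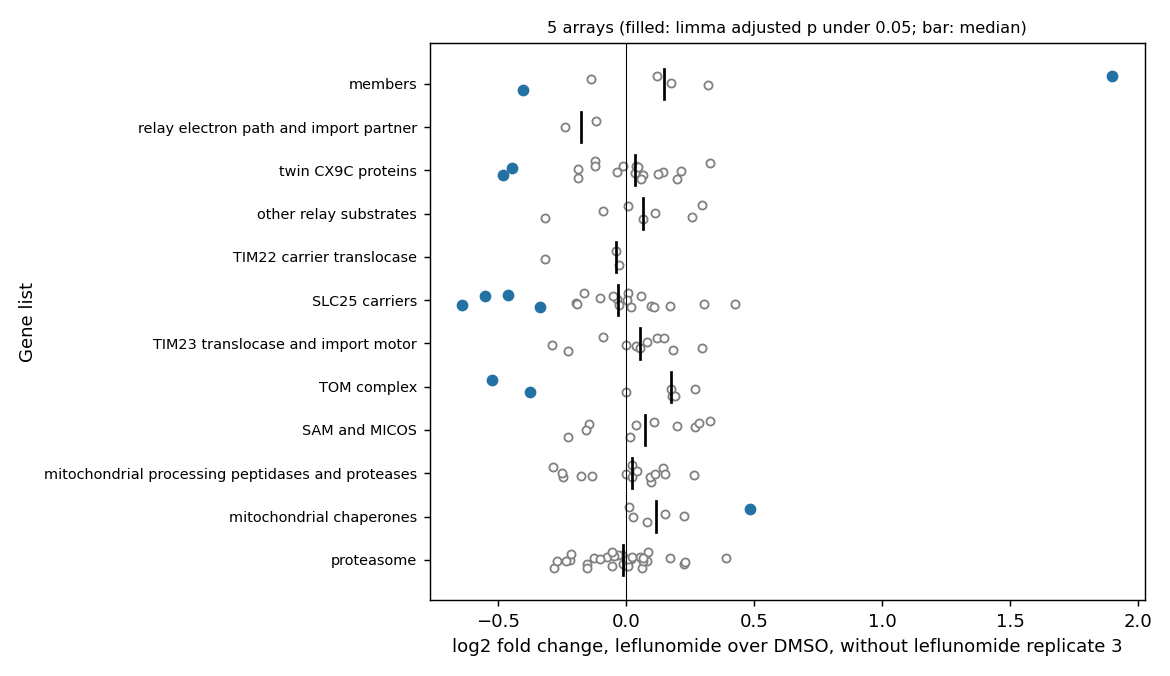
Log2 difference, leflunomide minus DMSO, of each tested gene on 5 arrays without leflunomide replicate 3, for the members and the import and proteasome lists. Filled points passed a limma adjusted p of 0.05 over all genes and bars are list medians. MIX23, chosen for its increase, stands at 1.90, and the 94 other import genes run from -0.64 to 0.49.

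CHCHD4 was not the only import gene at background on leflunomide replicate 3. Of 78 list genes above background on the other 5 arrays, restricted as above to a detection p-value that ranks 1 signal, 7 were not above it on that one, beside the 14.8% of all such rows given above. They included CHCHD10, SLC25A39, DNAJC15, HSPA9, TOMM20 and LONP1, which had signals of 11.1 to 17.1 there. HSPA9, the motor chaperone mortalin, gave 3398, 4419 and 3269 with DMSO and 2574, 4360 and 17.1 with leflunomide. Its log2 difference was -2.39 with an SE of 1.99 on 6 arrays and 0.08 with an SE of 0.11 without that array. TOMM20, an import receptor, went likewise from -2.10 to 0.27, and LONP1, a matrix protease, from -2.09 to 0.09.

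Of 12 markers of other cell types, 3 to 6 were detected per array, while PTPRC, CD3E, VWF, CDH5 and KRT5 were at background. Their summed signal, not normalized between arrays, was 1997 to 2432 with DMSO and 805 to 1589 with leflunomide. The 805 was on the dim leflunomide replicate 3. The melanocyte marker sum was also lowest there, at 1607, against 2799 to 4829 on the other arrays, so the sums partly follow array brightness. On 5 arrays 4 of the 6 tested markers of other cell types, CD68, DCN, LUM and KRT14, were called lower, beside 9.98% of all genes. The log2 differences of the 6 ran from -1.03 to 0.13. The part of these markers in the import values was not tested.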

How the data were processed

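Bead intensities were deposited as linear mean signals per probe row, not normalized between arrays, each with a detection p-value, per the file headers. The submitters' processing notes name GenomeStudio, without a version, and the source of the probe annotation was not stated. Of 38275 rows, 32290 had a deposited p-value that ranked the signal among 759 negative controls (tolerance 0.001). From these rows, with p rounded to its rank, each array's control mean and SD were inferred (limma 3.58.1, R 4.3.3). Signals were corrected by normexp with an offset of 16, quantile normalized and log2 transformed. A row was kept where detection p was below 0.05 on 3 or more arrays, 1 row per gene, and limma (lmFit, eBayes) with Benjamini-Hochberg adjustment over all kept genes was run on 6 arrays and without leflunomide replicate 3. The code was tested on simulated data. Symbols were updated through RefSeq: 14193 were current, 3625 were renamed, 7598 were kept as written and 22 spoiled into dates kept the date as their name.

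A second deposited table of intensity signals without gene names had column means of 311.5 to 311.6. It was matched by signal and used as an alternative, and 70.8% of 3267 bright rows matched 1 probe.

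The members, lists and alternatives were chosen with earlier results of these data known. Named genes were the members, in each list the 3 genes ranking first by absolute moderated t, those above background on all arrays but leflunomide replicate 3, the nearest 2 genes on each side of MIX23 and the 5 genes most correlated with it. Genes called on 5 arrays and the ranked-p restriction were added after values were seen. For MIX23 and the other members no p-value is given. Some list genes are not reported here by name. The precision of array values is limited by the number of arrays, 3 per group.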

Additional observations from a re-analysis of the deposited data

How the results depend on the processing

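MIX23 stayed higher with leflunomide in every alternative run. Its log2 difference was 1.66 with normexp from the signals alone and an offset of 50, 1.69 with no background correction, 1.12 with median scaling, 1.62 in the second deposited table and 1.64 with median scaling on 5 arrays, an alternative chosen after seeing the data. Leaving out 1 array at a time gave 1.73 to 1.97. The count of members called, 1 in the main setting, was 0 with median scaling and 2 with array weights. Without 1 array it ranged from 0 to 2: it was 0 without any one of the DMSO arrays or leflunomide replicate 1 or 2, and 2 without leflunomide replicate 3. The calls over all genes, 24 higher and 98 lower, were as sensitive. Counts higher were 0 with median scaling, 93 with cyclic loess, 43 with no detection filter, 52 with detection on all arrays, 13 with an intensity trend and 1193 with array weights. Counts lower were 0 with median scaling, 238 with cyclic loess, 1298 with array weights and 63 in the second table. Without 1 array they ran from 0 to 1122 higher and from 3 to 1214 lower, the upper ends without leflunomide replicate 3. Under limma with median scaling 1479 genes had an unadjusted p under 0.05, against 2075 in the main setting. Among the import lists SLC25A4 alone was called with normexp from the signals, no background correction or an offset of 50. It was also the 1 import gene called with cyclic loess and with no detection filter. Array weights called 10 import genes, beside 1193 higher and 1298 lower of all 12345 genes. The causes were not tested. With the replicate number as a block, 0 members, 0 genes higher and 4 lower were called, and 1817 had an unadjusted p under 0.05. Nothing in the labels says that a number pairs arrays. Deviations of same-numbered arrays correlated at -0.0082, 0.20 and 0.21, and those of the other pairs at -0.23 to 0.17. Deviations from a mean of 3 arrays constrain each other, so these values cannot decide whether the numbers pair the arrays. The number of arrays, 3 per group, and signals near the negative controls limit what can be detected, GFER and TIMM13 included.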

Other observations

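The proteasome, which degrades precursors that fail to enter mitochondria, was listed beside the import genes, and 31 of its 32 genes were tested. Limma called 0 of them on 6 arrays, beside 0.194% of all genes called higher and 0.794% lower. On those arrays 0 also had an unadjusted p under 0.05, beside 2075 of all 12345 genes. On 5 arrays limma called 0, beside 9.22% of all genes called higher and 9.98% lower. The median log2 difference was 0.01 on 6 arrays and -0.01 on 5 arrays. The largest absolute moderated t values belonged to PSMD2 (log2 difference -0.37, and -0.22 on 5 arrays), PSMB5 (-0.27 and -0.21) and PSMB2 (-0.23 and -0.15). PSMA5 had signals of 5183 to 6925 on 5 arrays and 17.2 on leflunomide replicate 3.

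PMEL, a melanosome matrix protein among the lineage markers, gave signals of 118, 120 and 108 with DMSO and 64.4, 66.1 and 47.2 with leflunomide. It was above background on 3 of 3 DMSO arrays and 1 of 3 leflunomide arrays, so it passed the detection filter mainly through DMSO and no test of it is given.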
